A study of Homo sapiens with 20 samples.

Results

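The lysosome and autophagy set holds 46 human genes, chosen by gene symbol for the degradative compartment of the cell and for the pathway that delivers cytoplasm to it. It was followed in T-cell acute lymphoblastic leukemia (T-ALL) lines grown with vehicle (DMSO) or with CompE, an inhibitor of gamma-secretase, the protease that releases the active part of NOTCH1. Of the 46 genes, 45 had an array probe set that names 1 gene, and 42 were bright enough to test among 7695 tested genes. GLB1 (a galactosidase) appeared only in a probe set shared by several genes and was not measured, and CTSL, CTSZ and ATG7 lay under the brightness filter.

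The study used 10 lines, HPB-ALL, CUTLL1, ALL-SIL, RPMI8402, PF382, KOPTK1, DND41, P12-ICHIKAWA, MOLT3 and CCRF-CEM. Activating NOTCH1 mutations are given for these lines in the series' description, so DMSO and CompE groups share them. Each gave 1 DMSO array (0 nM) and 1 CompE array (100 nM), both at 72 h, so the 20 arrays form 10 pairs. For P12-ICHIKAWA, MOLT3 and CCRF-CEM the medium in the DMSO label carries a cell line's name and differs from that in the CompE label, which may be an entry error. Separate cultures for the paired arrays are not stated in the labels. A p-value sets the mean change against how much the change varies over these 10 lines. With 1 array per line and group, differences between cultures and arrays are part of that variation.

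The lysosome is an acidic organelle filled with hydrolases that digest proteins, sugars and lipids. A proton pump, the V-ATPase, keeps it acidic, and glycosylated membrane proteins such as LAMP1 line it. In macroautophagy the ULK1 kinase starts a membrane that is extended by ubiquitin-like proteins of the ATG8 family, takes up cargo through receptors such as SQSTM1, and fuses with the lysosome. TFEB, a transcription factor of the MiT family, activates many genes of both systems through a DNA element that holds the letters CACGTG.

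Few of the genes passed the test, and those that did were higher after CompE. LAMP1 and ULK1 rose, none of the 42 fell, and 40 did not pass, in a fit in which 7.17% of all tested genes passed in either direction, 3.94% upward and 3.24% downward. The share of these genes that rose, 4.76%, lay near the upward background. At an unadjusted p under 0.05 there were 12 of the 42, all higher, while 25.1% of all tested genes reached that level in either direction. The upward share of all tested genes at that level was not computed, so the shared direction has no background beside it. The fitted differences were above 0 for 29 of the 42 and below 0 for 13, with a median of 0.13 on the scale of log2(signal + 16), beside a median of 0.044 over all tested genes, of which 58.9% were above 0. The median of the 42 stood at 0.054 when every array was centred on its own median, a scaling in which the median of all genes was -0.028. Under it the calls over all genes turned from 303 higher and 249 lower to 116 higher and 340 lower, which is 1.51% and 4.42% of the tested genes.

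**Figure D1:**
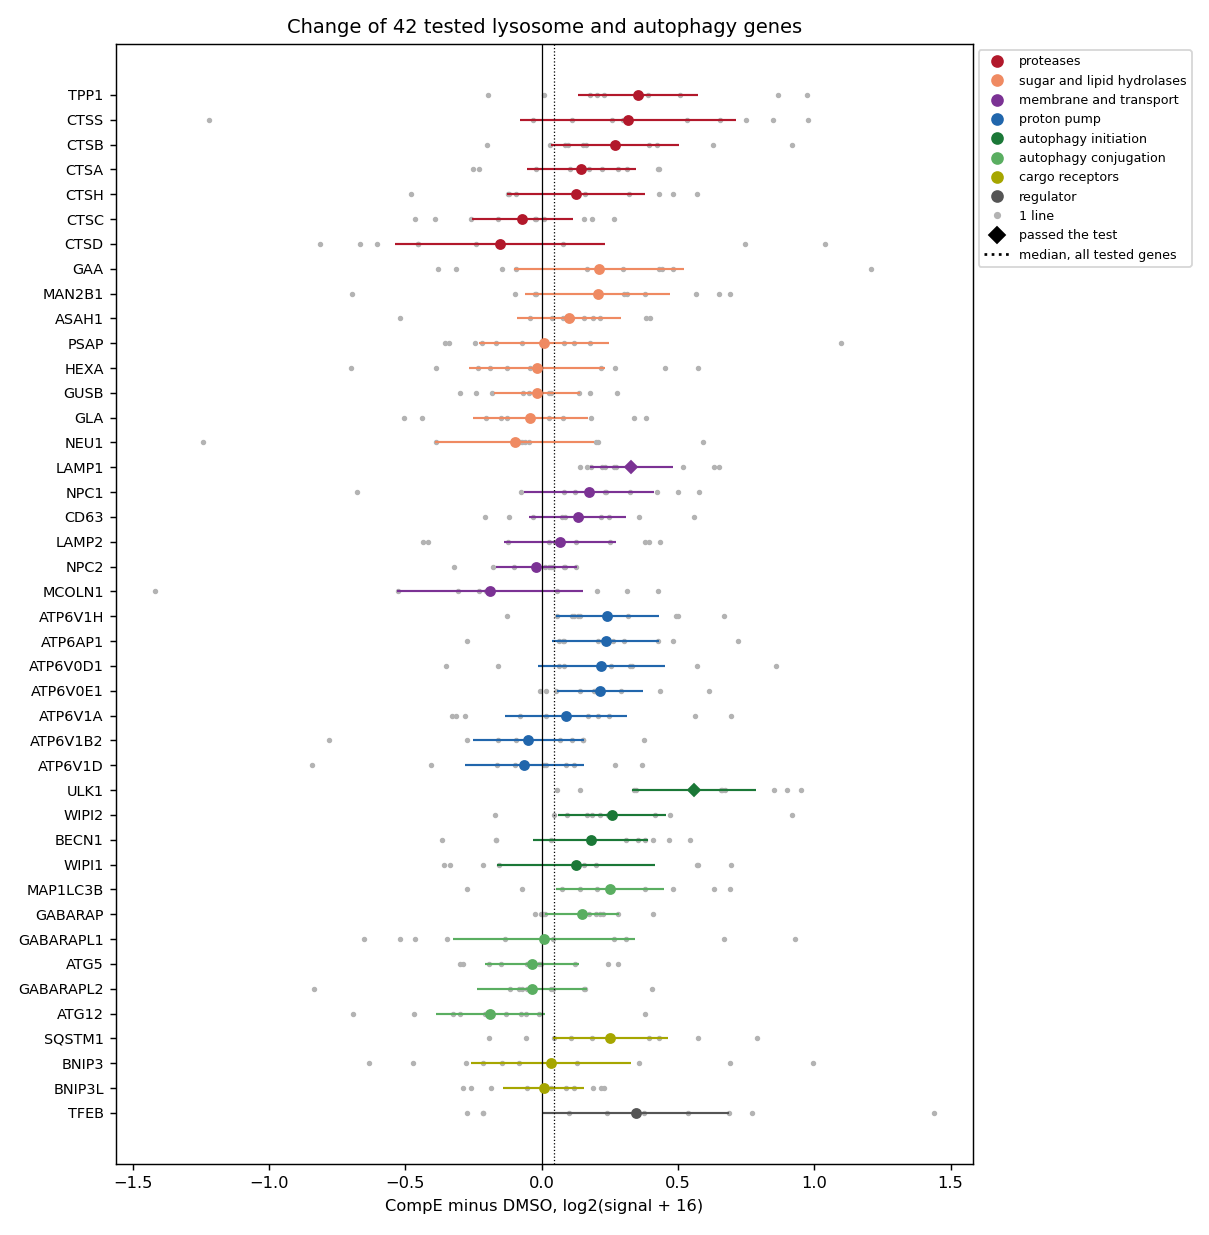
Difference between CompE and DMSO for the 42 tested genes, by role. The x axis is the difference in log2(signal + 16), large symbols are the fitted mean of 10 lines with the 95% confidence interval, grey points are single lines, and the dotted line marks 0.044, the median of all tested genes. Diamonds mark LAMP1 and ULK1, which passed the test, and the intervals of most other genes cross 0.

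HES1 and MYC, read as a check on the inhibitor, were lower on average after CompE in the same arrays. HES1, a direct NOTCH target that encodes a repressor, fell by 1.71 ± 0.30 (SE, n = 10 lines; limma adjusted p = 0.00775), and MYC, a NOTCH1 target that drives growth, fell by 1.5 ± 0.28 (limma adjusted p = 0.0107). The drop in HES1 was seen in every line, and MYC was lower in 9 of 10, with P12-ICHIKAWA the exception at 0.53. With the ACTB ratio as covariate the MYC difference was -1.06 and missed the threshold (limma adjusted p = 0.057), and another HES1 probe set gave -0.63 (adjusted p = 0.0801). HES1 and MYC also missed it under the exact sign-flip permutation test, with the 10th percentile of signal as covariate and without the line block, settings under which 0 of all genes passed with limma or that test (1851, 1051 and 369 had an unadjusted p under 0.05). All 8 T-cell markers were measured, and their summed signal ranged from 8782 to 20183 in DMSO and from 8771 to 21471 in CompE. Among them LCK, the kinase next to the T-cell receptor, rose by 0.26 ± 0.062 and CD3G, a chain of the receptor complex, fell by 0.54 ± 0.14 (limma adjusted p = 0.0228 and 0.0271), and the median difference of the 8 was -0.098. Of 10 myeloid markers 9 were measured and all lay under the brightness filter, with sums from 89.6 to 234 in DMSO and from 111 to 286 in CompE.

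ACTB signal at the 3' end over that at the 5' end, a measure of RNA integrity and labelling, was 1.47 ± 0.69 (SD, n = 10) in DMSO and 2.28 ± 2.64 in CompE. It was higher after CompE in 9 of 10 lines (exact sign-flip permutation test, two-sided, p = 0.00586, adjusted over 2 ratios 0.0117). The GAPDH ratio was 1.01 ± 0.13 and 1.19 ± 0.42 (same exact test, p = 0.0312). KOPTK1 stood apart, with an ACTB ratio change of 1.56 on the log2 scale against -0.049 to 0.54 in the other lines. The part of RNA quality in the differences below was not tested beyond the fits that are named. Without KOPTK1, 6 of the 42 genes were higher, which is 14.3% beside 7.3% of all tested genes: ATP6V1H, CTSS, LAMP1, MAP1LC3B, TPP1 and ULK1.

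Among the membrane and transport genes LAMP1, the abundant glycoprotein of the lysosomal limiting membrane, rose. LAMP1 signal ran from 839 through a median of 1661 to 2317 in DMSO and from 990 through 1958 to 3597 in CompE. The groups overlapped across lines, but within every line the CompE array was the higher one. RPMI8402 was the lowest and KOPTK1 the highest line in both groups. The fitted rise was 0.33 ± 0.072 (SE, n = 10; limma with Benjamini-Hochberg adjustment, adjusted p = 0.0165), a 1.26-fold difference on that scale with a 95% interval of 0.18 to 0.48 in log2. Single lines ranged from 0.14 in PF382 to 0.65 in HPB-ALL.

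LAMP1 is the one called gene of the set whose probe sets disagreed. The values above come from the brightest probe set, 201553_s_at. The next in brightness, 201552_at, had a median DMSO signal of 666 and a difference of 0.18 ± 0.091, higher in 8 lines. The dimmer 201551_s_at and 213728_at, at medians of 125 and 51.0, gave -0.041 ± 0.17 and -0.43 ± 0.23, and none of these other probe sets passed (limma adjusted p = 0.255, 0.917 and 0.279). With the mean of all probe sets the LAMP1 difference was 0.0083 (adjusted p = 0.964), with median centring 0.26 (0.0529), and with the ACTB ratio as covariate 0.23 (0.0961).

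The LAMP1 promoter is shown because it carries the TFEB-type element several times. In RefSeq on GRCh38.p14 the window from 250 bases before to 50 bases after the start site lies at chr13:113296989-113297288 on the plus strand, upstream of and into the first exon. Capitals mark the 8-letter form GTCACGTG or its reverse complement CACGTGAC, of which a script found 6 copies.
LAMP1: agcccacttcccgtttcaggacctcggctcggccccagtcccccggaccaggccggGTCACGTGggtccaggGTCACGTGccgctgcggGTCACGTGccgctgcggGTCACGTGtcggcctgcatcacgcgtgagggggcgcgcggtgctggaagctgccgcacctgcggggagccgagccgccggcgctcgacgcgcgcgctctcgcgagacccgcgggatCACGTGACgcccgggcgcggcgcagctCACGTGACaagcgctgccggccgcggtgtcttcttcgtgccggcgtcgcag

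The other membrane genes did not pass. NPC1, the cholesterol exporter of the lysosomal membrane, differed by 0.17 ± 0.11, and CD63, a tetraspanin of late endosomes, by 0.13 ± 0.084. LAMP2, the second major membrane glycoprotein and part of chaperone-mediated autophagy, stood at 0.068 ± 0.097. MCOLN1, the calcium channel of the lysosome, had the lowest value of the role at -0.19 ± 0.16, and NPC2, the soluble partner of NPC1, was close to 0 at -0.019 (limma adjusted p = 0.344 to 0.899 over the 5 genes). Signal of MCOLN1 in the CompE array of KOPTK1 was 7.67, while the other 9 lines lay between 49.7 and 89.7. With the ACTB ratio as covariate its difference was 0.12.

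In the initiation of autophagy, ULK1, the kinase that receives nutrient signals from mTORC1 and AMPK, rose. ULK1 signal was 145, 182 and 355 (lowest, median, highest) in DMSO and 188, 307 and 420 in CompE. Both groups overlapped across lines, and all 10 pairs went upward. The fitted rise was 0.56 ± 0.11 (SE, n = 10; limma adjusted p = 0.0118), a 1.47-fold difference with a 95% interval of 0.33 to 0.78 in log2. It was smallest in the 2 lines that started highest: P12-ICHIKAWA went from 355 to 370 and PF382 from 321 to 355. Other lines did not all follow this order. CCRF-CEM, the lowest in DMSO at 145, changed by 0.34, and RPMI8402, at 260 in DMSO, by 0.66. The DMSO value enters both the start and the change, and their relation was not tested. CUTLL1, at 169 in DMSO and 342 in CompE, had the largest change, 0.95. ULK1 has 1 probe set here, 209333_at, so no second measurement bears on it.

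ULK1 and LAMP1 remained called in all 10 fits that left out 1 line. ULK1 kept its call with the ACTB ratio as covariate (0.49, limma adjusted p = 0.0447). Both lost it with the 10th percentile of signal as covariate (LAMP1 0.29, adjusted p = 0.202; ULK1 0.58, adjusted p = 0.136), where 0 of all tested genes passed with limma and 1051 had an unadjusted p under 0.05. Under an exact sign-flip permutation test per gene, which cannot give a p below 0.00195, the adjusted p of both genes was 0.058 and 0 of all tested genes passed, while 1851 had an unadjusted p under 0.05.

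**Figure D2:**
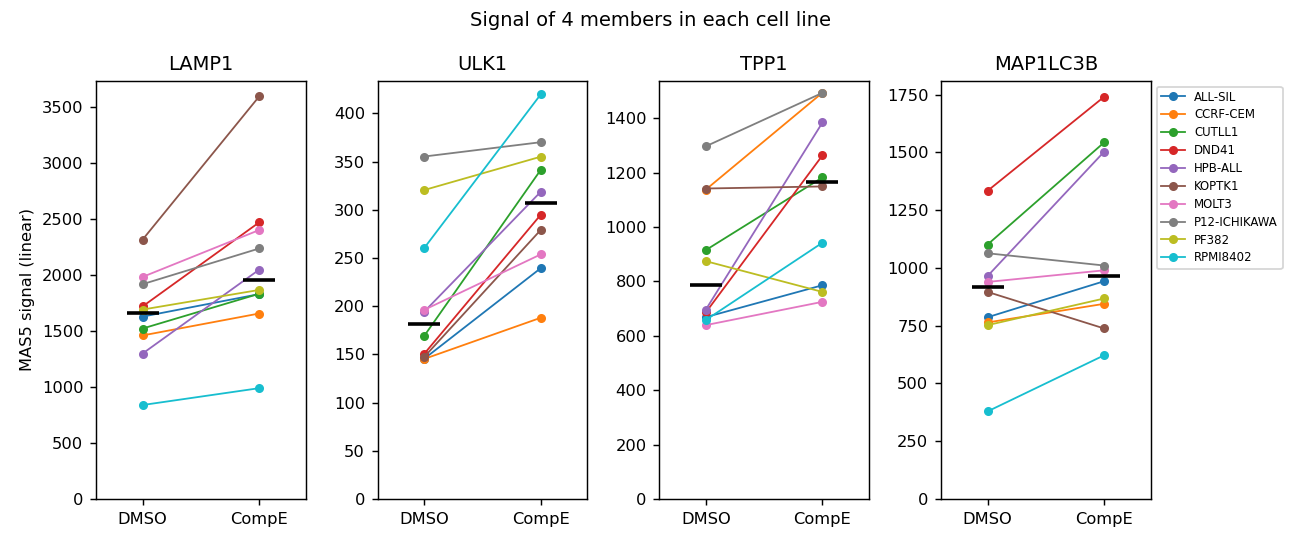
Signal (linear MAS5 units, y axis from 0) of LAMP1, ULK1, TPP1 and MAP1LC3B in DMSO and CompE, with 1 coloured line per cell line and black bars at the group medians. All 10 lines slope upward for LAMP1 and ULK1, 9 do for TPP1 and 8 for MAP1LC3B.

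The ULK1 promoter window, chr12:131894372-131894671 on the plus strand of GRCh38.p14, is shown for contrast with that of LAMP1, since the gene with the largest rise held no CACGTG there.
ULK1: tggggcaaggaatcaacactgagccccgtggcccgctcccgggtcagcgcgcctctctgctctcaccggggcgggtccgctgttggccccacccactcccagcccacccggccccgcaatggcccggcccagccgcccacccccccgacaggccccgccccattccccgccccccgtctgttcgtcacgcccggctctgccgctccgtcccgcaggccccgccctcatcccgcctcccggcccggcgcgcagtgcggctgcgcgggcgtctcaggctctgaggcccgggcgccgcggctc

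All 4 initiation genes had a fitted value above 0, with a median of 0.22. WIPI2, which binds the phosphoinositide of the forming membrane and recruits the conjugation machinery, differed by 0.26 ± 0.093 and was higher in 9 lines. BECN1, a subunit of the lipid kinase complex that makes that phosphoinositide, stood at 0.18 ± 0.10, and WIPI1, a relative of WIPI2, at 0.13 ± 0.14. None of these passed (limma adjusted p = 0.0972, 0.273 and 0.612).

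The conjugation genes split evenly, with 3 of 6 tested above 0 and a median of -0.013. MAP1LC3B, the most used marker of autophagosomes, ran from 379 through 918 to 1334 in DMSO and from 622 through 966 to 1741 in CompE. It differed by 0.25 ± 0.094, higher in 8 lines (limma adjusted p = 0.11). KOPTK1 and P12-ICHIKAWA were the lines in which it was lower. It passed without KOPTK1 (0.31, limma adjusted p = 0.0245), the only 1 of 10 fits with 1 line left out. Of 14 other settings it passed in 1, the ACTB ratio as covariate (0.38, adjusted p = 0.0495). With median centring the MAP1LC3B difference was 0.18 (limma adjusted p = 0.32). GABARAP, a relative in the same ATG8 family, differed by 0.15 ± 0.065 (adjusted p = 0.161), whereas GABARAPL1 and GABARAPL2, 2 further relatives, lay between -0.036 and 0.0091.

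ATG12, the ubiquitin-like protein that is joined to ATG5, was the lowest of the tested genes at -0.19 ± 0.095 and was lower in 9 of 10 lines (limma adjusted p = 0.228). Its partner ATG5 stood at -0.035 ± 0.081 (adjusted p = 0.826). ATG7, the activating enzyme of both conjugation systems, was too dim to test, with median signals of 41.1 in DMSO and 31.2 in CompE. The filter works on the mean of log2(signal + 16), which for ATG7 corresponds to a signal of 32.2, just under the limit of 32.5.

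Cargo receptors did not pass either. SQSTM1 (p62), which links ubiquitinated cargo to the ATG8 proteins, differed by 0.25 ± 0.10 and was higher in 8 lines (limma adjusted p = 0.128), with the largest difference, 0.79, in RPMI8402. BNIP3 and BNIP3L, receptors for mitochondria, stood at 0.035 ± 0.14 and 0.0084 ± 0.070 (adjusted p = 0.909 and 0.957).

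Among the proteases no gene passed, and 5 of 7 tested were above 0 with a median of 0.14. TPP1, a tripeptidyl peptidase mutated in a childhood neuronal storage disease, came nearest. Its signal was 640, 786 and 1298 in DMSO and 725, 1166 and 1495 in CompE, higher in 9 lines and lower in PF382 (875 to 762). The difference was 0.35 ± 0.10 (SE, n = 10; limma adjusted p = 0.0507), and it passed without KOPTK1 (0.39, adjusted p = 0.0228) and without PF382 (0.41). Of 10 fits that left out 1 line TPP1 passed in these 2, and it passed in 4 of 14 other settings. It missed with median centring (0.28, limma adjusted p = 0.143) and with the ACTB ratio as covariate (0.37, 0.0988). With the mean of all probe sets it also missed (0.14, limma adjusted p = 0.367). The other probe sets of TPP1 gave -0.024, 0.20 and 0.026.

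The cathepsins are the main proteolytic enzymes of the lysosome. CTSB differed by 0.27 ± 0.11 and was higher in 9 lines, CTSS, the cathepsin of antigen-presenting cells, by 0.32 ± 0.19, and CTSA, which also protects the galactosidase GLB1 and the sialidase NEU1, by 0.14 ± 0.094 (limma adjusted p = 0.141, 0.302 and 0.354). CTSS was lower in KOPTK1 (163 in DMSO, 60.8 in CompE) and in ALL-SIL, and without KOPTK1 it passed at 0.49 (adjusted p = 0.0456). Its larger differences came from dim arrays, such as 4.67 in DMSO and 24.6 in CompE for MOLT3 or 3.39 and 18.9 for RPMI8402. The other CTSS probe set, itself under the brightness filter, gave -0.28 and was higher in 3 lines. CTSD, an aspartic protease, had the lowest value at -0.15 ± 0.18. It is named here after its values were seen, because its lines went from -0.81 in PF382 to 1.04 in MOLT3. CTSL and CTSZ were dim throughout, with median DMSO signals of 9.31 and 23.4 and median CompE signals of 20.3 and 18.7.

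The 8 tested sugar and lipid hydrolases gave a median of -0.0040, with 4 above and 4 below 0. MAN2B1, the alpha-mannosidase of glycoprotein breakdown, and GAA, the glucosidase that digests glycogen in the lysosome, had the highest values, 0.21 ± 0.13 and 0.21 ± 0.15. ASAH1, the acid ceramidase, stood at 0.10 ± 0.090 and NEU1, a sialidase, at -0.099 ± 0.14. HEXA, GLA, GUSB and PSAP, the last a precursor of activator proteins, lay between -0.042 and 0.0085. The 8 genes had limma adjusted p values from 0.32 to 0.974.

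For the V-ATPase no gene of 7 passed, and 5 were above 0 with a median of 0.21. ATP6V1H, a regulatory subunit of the cytosolic sector, and ATP6AP1, an accessory subunit, differed by 0.24 ± 0.089 and 0.23 ± 0.093. ATP6V0D1 and ATP6V0E1, both of the membrane sector, differed by 0.22 ± 0.11 and 0.21 ± 0.074. Except for ATP6V0D1, with 8, these subunits were higher in 9 of 10 lines (limma adjusted p = 0.0844 to 0.231 over the 4 genes). The remaining subunits ATP6V1A, ATP6V1B2 and ATP6V1D, all of the cytosolic sector, lay between -0.064 and 0.090. The brightest probe sets of ATP6V0E1, ATP6V1D and ASAH1 carry the suffix x, which the array's maker uses for sets that can match other transcripts.

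TFEB itself differed by 0.35 ± 0.16 (SE, n = 10; limma adjusted p = 0.195). Its signals were 15.0, 68.8 and 156 in DMSO and 37.0, 87.1 and 211 in CompE, higher in 7 lines. The largest difference was 1.44 in KOPTK1, and HPB-ALL, MOLT3 and P12-ICHIKAWA were lower after CompE. A second TFEB probe set gave 0.11.

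Setting the systems side by side, 15 tested hydrolases had a median difference of 0.10 with 0 called and 7 pump subunits 0.21 with 0 called. The 13 autophagy genes gave 0.13 with 1 called and the 6 membrane genes 0.10 with 1 called, beside 0.044 over all tested genes. The systems lay closer when the median was taken within each line and averaged over 10 lines. That gave 0.093 for hydrolases, 0.10 for membrane genes, 0.12 for the pump and 0.13 for autophagy (SD 0.10 to 0.15). The median per line over the 42 genes was above 0 in all 10 lines, from 0.060 in RPMI8402 to 0.32 in HPB-ALL, with a mean of 0.13 ± 0.077 (SD, n = 10). The same median over all tested genes was above 0 in 9 of 10 lines and averaged 0.043 ± 0.035, and in RPMI8402 it was 0.066, above that of the 42. HPB-ALL had the highest medians for membrane, pump and autophagy genes, 0.42, 0.38 and 0.42. KOPTK1 was below 0 for these systems, at -0.20, -0.13 and -0.16, yet at 0.18 for the hydrolases, and it was also the line with the largest change of the ACTB ratio.

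**Figure D3:**
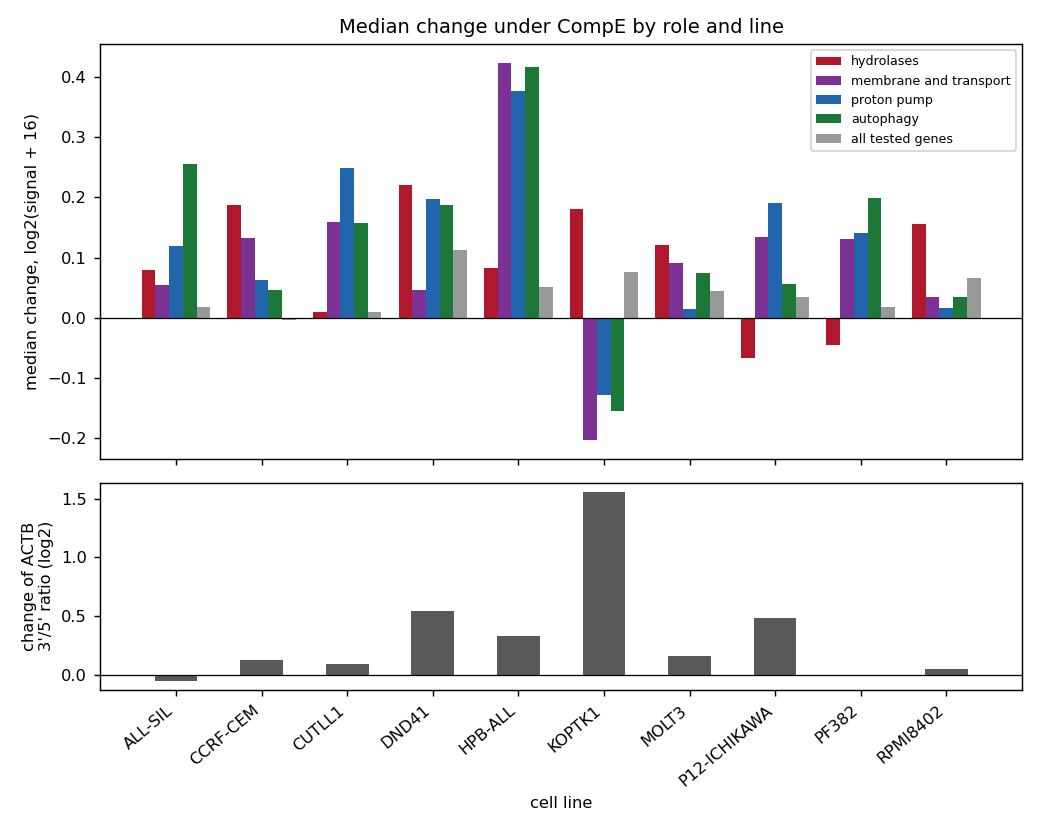
Upper panel, median difference (CompE minus DMSO, log2(signal + 16)) in each cell line for hydrolases, membrane genes, the proton pump, autophagy genes and all tested genes. Lower panel, change of the ACTB 3' to 5' ratio (log2) in the same line: KOPTK1, with membrane, pump and autophagy medians below 0, has the largest ratio change, 1.56.

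Probe sets of the same gene did not always move together. Of the 42 genes, 20 had 35 further probe sets over the brightness filter, and 21 of these had the sign of the brightest set while 14 had the other sign. In a fit of every probe set on its own, in which 4.92% of 11685 passed and 2.61% passed downward, 2 of the 35 passed, both downward. They belong to ATP6V1A, a catalytic subunit of the V-ATPase, and to ATG12, and are named after their values were seen.

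For ATP6V1A, the brightest set 201972_at differed by 0.090 ± 0.11 with a median of 591 in DMSO and 581 in CompE. Its second set, 201971_s_at, ran from 102 through 210 to 496 in DMSO and from 64 through 147 to 249 in CompE, and was lower in all 10 lines by 0.14 to 1.2. That set fell by 0.55 ± 0.11 (limma adjusted p over all probe sets = 0.019). For ATG12, 204833_at ran from 132 through 272 to 348 in DMSO and from 103 through 173 to 326 in CompE, also lower in all 10 lines. It fell by 0.40 ± 0.098 (limma adjusted p = 0.0321), while the brightest set gave -0.19 and the dimmest, 213930_at, gave 0.15 ± 0.15. Probe sets of a gene can read different transcript ends or isoforms, and which transcript each of these reads was not analysed here.

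**Figure D4:**
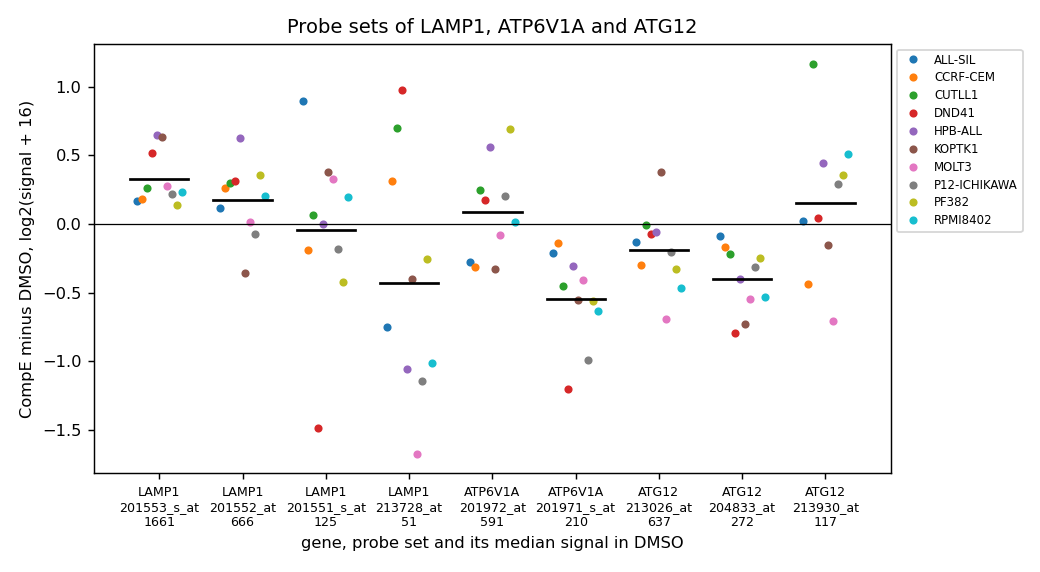
Difference per line (CompE minus DMSO, log2(signal + 16), y axis) for each probe set of LAMP1, ATP6V1A and ATG12, with black bars at the mean and the median DMSO signal under each name. The 10 lines of 201553_s_at (LAMP1) all lie above 0, and those of 201971_s_at (ATP6V1A) and 204833_at (ATG12) all lie below 0.

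For most of these genes the larger part of the variation lay between lines. The remainder joins treatment with every other difference within a pair, and the share of treatment alone was not computed. Pairs of arrays give some share between lines even where lines do not differ. The share of the sum of squares of log2 signal that lay between lines had a median of 82.2% over the 42 genes and 80.2% over all tested genes. It ran from 43.6% for MAN2B1 and 53.8% for ULK1 to 99.3% for BNIP3. The line with the highest signal was the same in DMSO and CompE for 18 of the 42. These levels, and the genes picked from them here after their values were seen, are described with no test, and levels are compared only within a gene.

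BNIP3, the mitophagy receptor and a known target of the hypoxia factor HIF1, separated the lines most. Its DMSO signal was 1.15 in ALL-SIL, 1.64 in HPB-ALL and 10.8 in DND41, all far under the brightness filter of 32.5. In the other 7 lines it lay between 958 in RPMI8402 and 2846 in CCRF-CEM. CompE left the same 3 lines lowest, at 5.97, 19.2 and 3.33, with 823 to 3112 in the others. The second probe set of the gene, 201848_s_at, had the same 3 lines at 6.74, 10.5 and 17.0 in DMSO and the others at 743 to 3034. MAS5 values this close to 0 are noisy and have no order among themselves.

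The lines with little BNIP3 were also those with signal of a TLX homeobox oncogene, T-ALL drivers activated by chromosomal rearrangement. TLX1 was 913 in ALL-SIL in DMSO and at most 26.2 in the other lines. TLX3 was 302 in DND41 and 268 in HPB-ALL and at most 13.7 elsewhere, while in CompE PF382 also showed 65.3. This overlap of 3 lines was noticed in the values and was not tested, since the lines were set apart by the outcome itself. BNIP3L, the close relative of BNIP3, was present in all lines, from 1432 to 3218 in DMSO.

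Cathepsin levels formed a different pattern for each enzyme. CTSB was nearly absent from CCRF-CEM, at 5.30 in DMSO and 12.6 in CompE, while the other lines ranged from 74.9 to 727 in DMSO. The other CTSB probe sets were also lowest in CCRF-CEM in DMSO, at 9.1, 24.2 and 16.2. CTSH, an aminopeptidase, was highest in RPMI8402 (485), KOPTK1 (385) and MOLT3 (323), and near or under the brightness filter in HPB-ALL (27.6), P12-ICHIKAWA (30.7) and CUTLL1 (32.5). CTSS was highest in KOPTK1 (163), HPB-ALL (153) and ALL-SIL (134), while 5 lines lay at 19.4 or less, under the brightness filter. CTSC, which activates granule proteases of cytotoxic cells, went from 204 in MOLT3 to 1496 in ALL-SIL.

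The membrane protein CD63 was highest in HPB-ALL (1682) and CCRF-CEM (1506) and lowest in PF382 (255) and CUTLL1 (259.5). ASAH1 went from 198 in ALL-SIL to 1202 in CCRF-CEM. Different genes ordered the lines differently: the median Pearson r between pairs of the 42 genes, over 10 line means, was 0.043, beside 0.0036 for pairs of all tested genes. The pairs with r over 0.5 were 9.41% of 861, beside 8.58% among all tested genes. These correlations share their arrays and their scaling and are given as a description.

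**Figure D5:**
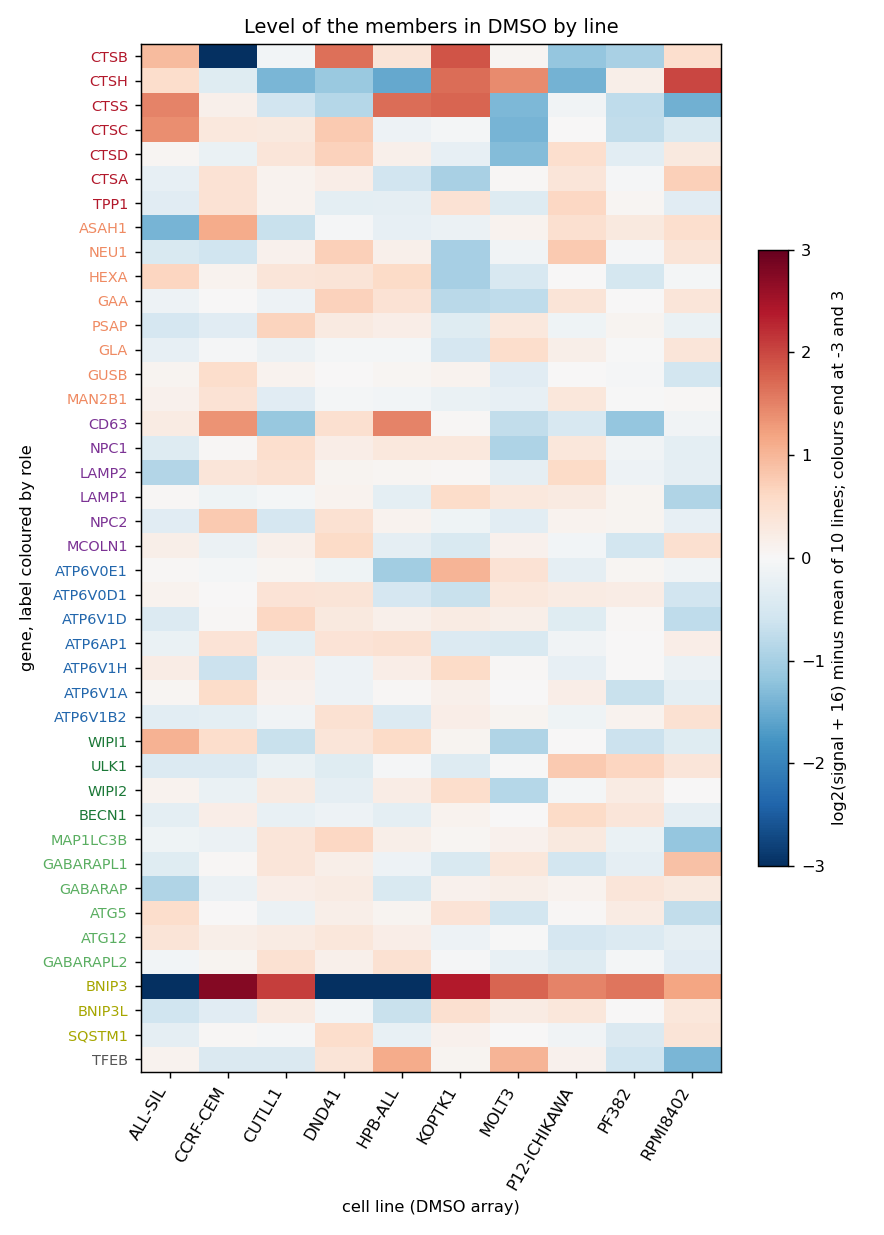
Level of each of the 42 genes in the DMSO array of each line, as log2(signal + 16) minus the gene's mean of 10 lines; colours end at -3 and 3 and gene labels are coloured by role. BNIP3 is far below its mean in ALL-SIL, DND41 and HPB-ALL, CTSB is far below in CCRF-CEM, and the rows of the cathepsins differ from one another.

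The wider pathway was read from a list of 110 related genes, of which 87 were measured and 77 tested. Of these, 5 rose and 0 fell, which is 6.49% against the upward background of 3.94%, and the median difference was 0.14 with 62 of 77 above 0. With median centring 1 rose (CTSK) and 2 fell, ATG3, an enzyme of ATG8 conjugation, and RRAGD, a GTPase that recruits mTORC1, named after their values were seen. The hydrolases held 3 of the 5, with a median of 0.31 over 17 tested. CTSK, a collagen-degrading cathepsin, ran from 45.4 through 81.9 to 163 in DMSO and from 95.8 through 138 to 222 in CompE, higher in all 10 lines. It rose by 0.61 ± 0.13 (SE, n = 10; limma adjusted p = 0.015).

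GM2A, the activator of ganglioside breakdown, rose by 0.40 ± 0.10 with a median signal of 355 in DMSO and 587 in CompE, and MANBA, the beta-mannosidase, rose by 0.42 ± 0.11, each in 9 of 10 lines (limma adjusted p = 0.0313 and 0.0383). NBR1, a cargo receptor related to SQSTM1, rose by 0.44 ± 0.10 from a median of 542 to 673, in 9 lines (limma adjusted p = 0.0192). VPS11, a core subunit of the complexes that tether vesicles to lysosomes, rose by 0.31 ± 0.088 in all 10 lines (limma adjusted p = 0.0431). None of 9 further pump subunits and none of 11 regulators passed, with medians of 0.16 and 0.12.

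Several of these calls depended on single lines. Of 10 fits that left out 1 line, CTSK passed in 10, NBR1 in 8, GM2A in 5, MANBA in 4 and VPS11 in 2. NBR1 missed without DND41 (adjusted p = 0.0509) and without HPB-ALL (0.0551). GM2A missed without CUTLL1, DND41, HPB-ALL, MOLT3 or RPMI8402, and MANBA without any of these or ALL-SIL. VPS11 kept its call only without KOPTK1 or P12-ICHIKAWA. With the ACTB ratio as covariate CTSK and NBR1 passed, while the limma adjusted p of GM2A, MANBA and VPS11 was 0.178, 0.171 and 0.127. Median centring kept CTSK alone (0.0192), with NBR1 at 0.0616, MANBA at 0.0652, GM2A at 0.0759 and VPS11 at 0.142. None of the 5 passed with the 10th percentile covariate or the exact sign-flip test. Other probe sets of GM2A gave 0.10 to 0.37 and that of NBR1 gave 0.12, and none of them passed.

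Promoter sequences were searched for the TFEB-type element. RefSeq promoters of 300 bases were at hand for 35 of the 46 genes and for 27305 genes in all, and 3 nested motifs were searched on both strands. The core CACGTG is its own reverse complement, the form TCACGTG contains it, and the longest form GTCACGTG contains both. CACGTG was in 25.7% of the 35, beside 8.77% of all promoters and 13.5% of the 6413 tested genes with a promoter. TCACGTG was in 20%, beside 4.49% and 7.83%. This longest form was in 6 of the 35 (17.1%), beside 2.93% of all and 5.79% of the tested genes.

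The carriers of GTCACGTG were ATP6V0D1, CTSA, CTSD, GAA, LAMP1 and MCOLN1, which are hydrolases, pump and membrane genes. None of the 13 autophagy genes with a promoter held TCACGTG, and of them BNIP3 alone held CACGTG. As examples, 1 window of 28 bases is given for each carrier other than LAMP1, on the strand of the gene. In each, 1 match to the motif or its reverse complement is in capitals. CTSA, GAA and MCOLN1 hold further matches that are not in capitals, 1 of which overlaps the match shown for GAA. The windows were picked for the motif, so that part of them is alike by choice. They lie at chr16:67481201-67481228 (minus), chr20:45891281-45891308 (plus), chr11:1763957-1763984 (minus), chr17:80101493-80101520 (plus) and chr19:7522571-7522598 (plus) of GRCh38.p14, in the order printed.
ATP6V0D1: cccccttatgGTCACGTGaggcgcttgc
CTSA: gaggaagactGTCACGTGgcgccggagt
CTSD: cggccgcgccCACGTGACcggtccgggt
GAA: gggaggccgcGTCACGTGacccaccgcg
MCOLN1: accagaggcgGTCACGTGaggggctctg

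Over all genes the longest form went with no shift of the median difference, while the median was lower for genes with the core than for those without it. The 371 tested genes with GTCACGTG had a median difference of 0.040, as had the 6042 without it, and 20 of the 371 (5.39%) rose while 6 (1.62%) fell. For the core CACGTG, the median difference was 0.020 over 868 tested genes with it and 0.043 over 5545 without it. Of the 868, 34 (3.92%) rose and 48 (5.53%) fell, and the background over all tested genes was 3.94% and 3.24%. These shares and medians were not tested. Within the set, the 6 carriers ran from -0.19 for MCOLN1 to 0.33 for LAMP1. A match is a description of letters in a window and says nothing about binding.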

How the data were processed

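The authors deposited linear MAS5 signal intensities, per the submitters' processing notes, with version and settings not given in the sources used here. Means over the central probe sets (top and bottom 2% trimmed) were 249.9 to 250.1 on the 20 arrays, so the deposited scaling was kept. It cannot show a change in total RNA per cell. In bulk RNA, fewer cells with a transcript and less of it per cell cannot be told apart. Of 22277 probe sets, 62 were controls, 19070 had 1 gene in the platform annotation, 1043 several and 2164 were not listed. For each of 11963 named genes the probe set of highest mean was used, and those whose average log2(signal + 16) fell below the 40th percentile, equal to a signal of 32.5, were left out. Changes are differences of log2(signal + 16), which understate the fold of dim genes. The model (limma 3.58.1, R 4.3.3) held line as fixed block and treatment, with an intensity trend, two-sided tests and Benjamini-Hochberg adjustment over 7695 genes at 0.05. The code was tested on simulated data. Arrays were paired by the line given in their labels. The number of arrays limits the precision. The 46 genes, the related list and the markers were chosen with earlier results of these data known. Genes named by value are those past the threshold, up to 4 per role with the smallest adjusted p, and of the related genes up to 3 per role past the threshold; exceptions are stated. Symbols and promoters came from RefSeq (GRCh38.p14), and the latter were missing for 11 of the 46 genes. The alternatives were other pseudocounts, filters, scalings, probe set rules, blocks, covariates, tests and sets of lines. B-cell, erythroid and fibroblast or epithelial markers were also summed: 5 of 6, 3 of 5 and 6 of 6 were measured, with sums of 145 to 2626, 98.1 to 371 and 112 to 319 in DMSO and 131 to 2025, 141 to 577 and 123 to 414 in CompE, and 0 passed with limma.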

Additional observations from a re-analysis of the deposited data

Results flagged for a closer look

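In 12 of 100 sets of 10 values, 1 line lay apart from the others by a gap over Dixon's critical value at the 95% level. The gap is a share of the whole range, and chance alone flags about 1 set in 20. For signals the gap was taken on the log2 scale used for the changes. The signals in this section are printed in linear units, on which the gaps have other sizes. KOPTK1 made up 6 of the 12 sets. Its change under CompE (log2) was -1.22 for CTSS (others -0.033 to 0.98), -0.52 for ASAH1 (-0.044 to 0.40), -0.68 for NPC1 (-0.075 to 0.58) and -1.42 for MCOLN1 (-0.53 to 0.43). Signal of MCOLN1 in its CompE array was 7.67, and its ACTB ratio change was 1.56. Their relation was not tested. In DND41, NEU1 changed by -1.24, with the other lines at -0.39 to 0.59.

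In CompE, ATP6V1H had a signal of 315 in CCRF-CEM (others 528 to 786), ATP6AP1 273 in MOLT3 (475 to 749) and ATG5 287 in RPMI8402 (483 to 783). In DMSO, MAP1LC3B stood at 379 in RPMI8402 (752 to 1334), and CTSD at 12.7 in MOLT3 (40.8 to 98.5), under the brightness filter.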

How the results depend on the processing

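The called set was small and moved with the settings. With 2 of the 42 genes higher at first, 1 (ULK1) passed under median centring and 1 (ULK1) with the mean of all probe sets. With no replicate block 0 passed, and 0 of all tested genes did (limma, 369 at an unadjusted p under 0.05). With the 10th percentile of signal as covariate both counts were 0 (limma, 1051 unadjusted) and with the exact sign-flip test both were 0 (1851 unadjusted). All tested genes called fell from 552 to 318 with the ACTB ratio as covariate and to 298 without the 3 lines of another medium label, and leaving out 1 line gave 181 (without HPB-ALL) to 1031 (without KOPTK1). The count of the 42 called higher then ran from 2 to 6, the latter without KOPTK1, and 0 were lower in every fit with 1 value per gene. Of the related genes called higher, 5 at first, 1 passed with median centring, 0 with no replicate block, 0 with the 10th percentile covariate, 0 with the sign-flip test, 2 without the 3 lines, and 1 (without DND41 or HPB-ALL) to 9 (without KOPTK1) with 1 line left out. Of those called lower, 0 at first, there were 2 with median centring, 1 each with the 60th percentile filter, quantile normalization and the random block (ATG3 each time), and 0 to 1 with 1 line left out (ATG3 without P12-ICHIKAWA). Why these counts moved was not tested. Of the 42 genes, 24 kept their sign in every fit with 1 value per gene and 18 did not. Other probe sets taken on their own are not part of this count, and some of the 24 reversed there.

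Reversed signs (log2) among genes named by value, none of which had passed apart from LAMP1, were these. Median centring gave LAMP2 -0.0032, BNIP3 -0.037 and BNIP3L -0.063, and a pseudocount of 64 gave BNIP3 -0.022. The mean of probe sets gave ATP6V1A -0.23, ATG5 0.0077 and BNIP3L -0.060. The 10th percentile covariate gave NEU1 0.10 and ATP6V1A -0.053, the ACTB covariate MCOLN1 0.12, and leaving out the 3 lines WIPI1 -0.023. Leaving out 1 line gave NEU1 -0.18 to 0.027, BNIP3 -0.072 to 0.11, BNIP3L -0.016 to 0.041 and NPC2 -0.035 to 0.015. NPC2 also changed sign in 1 of 14 other settings, with a range of -0.091 to 0.058 over all these fits. Other probe sets gave LAMP1 -0.041 and -0.43, TPP1 -0.024, CTSB -0.071, NPC1 -0.17, ATP6V0E1 -0.091, BECN1 -0.12, ATG12 0.15, ATG5 0.23, BNIP3L -0.13 and ATP6V1A -0.55. The cause was not tested.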
